A study of Mus musculus with 14 samples.

Results

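HOX genes encode homeodomain transcription factors that set position along the body axis and, in blood, help to control stem and progenitor cells. Mice carry them in 4 clusters (Hoxa, Hoxb, Hoxc and Hoxd), and the number in each symbol gives the paralog group, from anterior (low numbers, expressed earliest and furthest forward in the embryo) to posterior (high numbers). In acute myeloid leukemia (AML), the best known members are Hoxa9 and its neighbours in the Hoxa cluster, which act with the cofactor Meis1 and are kept active by the histone methyltransferase MLL. Polycomb complexes silence the clusters.

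The members were all genes of the deposited table whose symbol is Hoxa, Hoxb, Hoxc or Hoxd followed by a number, 39 of 53465 genes. The table counts RNA sequencing reads in 14 libraries of KL974, a single mouse AML cell line whose genotype label, in every group, is Trp53R172H;shMll3;shNf1 (a mutant Trp53 with hairpins against Mll3 and Nf1). The culture medium held IL3, IL6 and SCF, which are growth factors for blood progenitors. A lentiviral vector gave the cells a short hairpin RNA, and doxycycline induces the hairpin and the blue fluorescent protein (BFP) linked to it. The 7 groups, of 2 libraries each, were BFP positive cells with shOgdh346 at day 4, BFP positive cells with shOgdh2081 at day 4, and cells with a control hairpin that were untreated at day 0, or BFP positive or BFP negative after sorting at day 2 and at day 4. The titles call the BFP positive cells induced and the BFP negative cells uninduced. They do not say whether uninduced cells were given doxycycline, so from the titles hairpin induction and doxycycline cannot be told apart between these cells. Both Ogdh hairpins target the 2-oxoglutarate dehydrogenase subunit of the tricarboxylic acid cycle. The day 0 titles do not name sorting, so time, doxycycline and sorting cannot be told apart in a comparison with day 0. No label says that replicates were separate cultures, so the tests measure the spread between these libraries, which may be technical.

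Library totals ran from 913482 to 10271698 counts, an 11.2-fold range, and shOgdh346 replicate 2 and shOgdh2081 replicate 1 were shallow. Ogdh had 60.8 and 60.8 CPM (counts scaled to equal library totals) in shOgdh346 cells and 51.5 and 52.3 CPM in shOgdh2081 cells, against 247 and 267 CPM in control BFP positive cells at day 4. Among markers of blood progenitors, Kit had 464 to 578 CPM and Myb 536 to 897 CPM over the 14 libraries, while Cebpa had 0 counts, Mpo 1 and Cd34 2 in total. Of the markers of B and T cells, Pax5, Cd3e and Cd4 had 0 counts. The summed level of 8 blood and AML progenitor markers came nearly all from Kit and Myb. It was 1453 to 1475 CPM in shOgdh346 cells and 1473 to 1504 CPM in shOgdh2081 cells, against 1218 to 1228 CPM in control BFP positive cells at day 4. In these groups Myb alone had means of 889, 873 and 689 CPM. The summed level of 3 stromal markers, nearly all from Col1a2 (a collagen gene), was 13.8 to 17.3 CPM in shOgdh346 cells and 9.85 to 20.5 CPM in shOgdh2081 cells, against 28.9 to 31.6 CPM in control BFP positive cells at day 4. Over the control time course this sum was 23.0 to 25.8 CPM at day 0. At day 2 it was 16.7 to 17.6 CPM in BFP positive and 11.1 to 12 CPM in BFP negative cells, and at day 4 it was 24.0 to 26.8 CPM in BFP negative cells. The sum of 3 endothelial markers was 7.22 to 9.49 CPM in shOgdh346 cells and 7.66 to 9.29 CPM in shOgdh2081 cells, against 4.19 to 6.58 CPM in control BFP positive cells at day 4. The sum of 3 epithelial markers, nearly all from the keratin gene Krt18, was 0.997 to 1.33 CPM in BFP positive cells at day 2, against 3.41 to 4.61 CPM in BFP negative cells. The part of these sums in the results below was not tested. In such bulk samples, fewer cells that express a gene and less RNA per cell cannot be told apart.

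The line expressed the Hoxc cluster and almost nothing of the other clusters. Summed over the 48249780 counts of all 14 libraries, the 39 genes held 3937 counts, of which the 9 Hoxc genes took 3835 (97.4%). The 9 Hoxd genes held 94 counts (2.39%), 90 of them from Hoxd8. The 11 Hoxa genes together held 4 counts. The 10 Hoxb genes also held 4 counts, 3 from Hoxb13 and 1 from Hoxb4, a gene known for expanding blood stem cells when overexpressed. Hoxa9 and Hoxa10, the posterior Hoxa genes most often active in AML, had 0 counts in every library, which allows up to 3 counts in all (95% confidence), or 0.0622 CPM. Over the 4 clusters, 24 of the 39 genes had 0 counts and 9 had 1 to 6.

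A count of 0 in this table is not by itself proof that a gene was silent, because 5 mitochondrial genes (mt-Co2, mt-Co3, mt-Atp6, mt-Atp8 and mt-Nd4l), which every cell uses, are also listed at 0. Reads shared between overlapping genes may have been left uncounted, and the sources used here do not give that setting. Of the 34 HOX genes not tested, 19 share no exonic base with another gene in the GENCODE M21 annotation, and each of the other 15 keeps at least 874 exonic bases of its own, with Hoxd3 the most shared (62.8% of its exonic bases).

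By axial position, the 15 central genes (paralogs 4 to 8) held 3787 counts (96.2%), the 16 posterior genes (9 to 13) 146 (3.71%) and the 8 anterior genes (1 to 3) 4 (0.102%). Along the Hoxc cluster (chr15:102921103-103036852, GRCm38), the level per kilobase of transcript was highest in Hoxc4, the 3′-most gene, with 19.6 CPM per kb over all libraries. Hoxc5 followed at 5.92, Hoxc6 at 2.93, Hoxc9 at 1.15 and Hoxc8 at 0.293 CPM per kb. Hoxc8, which lies between Hoxc6 and Hoxc9, therefore stood below both neighbours in these pooled levels, although in shOgdh346 replicate 1 it had 13 counts and Hoxc9 had 8. Hoxc12 had 5 counts, and Hoxc10, Hoxc11 and Hoxc13 had 0. Library ranges set Hoxc4 (14.1 to 24.3 CPM per kb) apart from Hoxc5 (2.24 to 8.52), while Hoxc5 and Hoxc6 (2.05 to 5.46) overlapped, as did Hoxc6 and Hoxc9 (0.58 to 2.13), Hoxc9 and Hoxd8 (0 to 1.59), and Hoxc8 (0 to 0.808) with both Hoxd8 and Hoxc9. Hoxd8 stood alone in its cluster, with 0.68 CPM per kb over all libraries, while its neighbours Hoxd9 and Hoxd10 held 0 counts and 1 count.

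**Figure D1:**
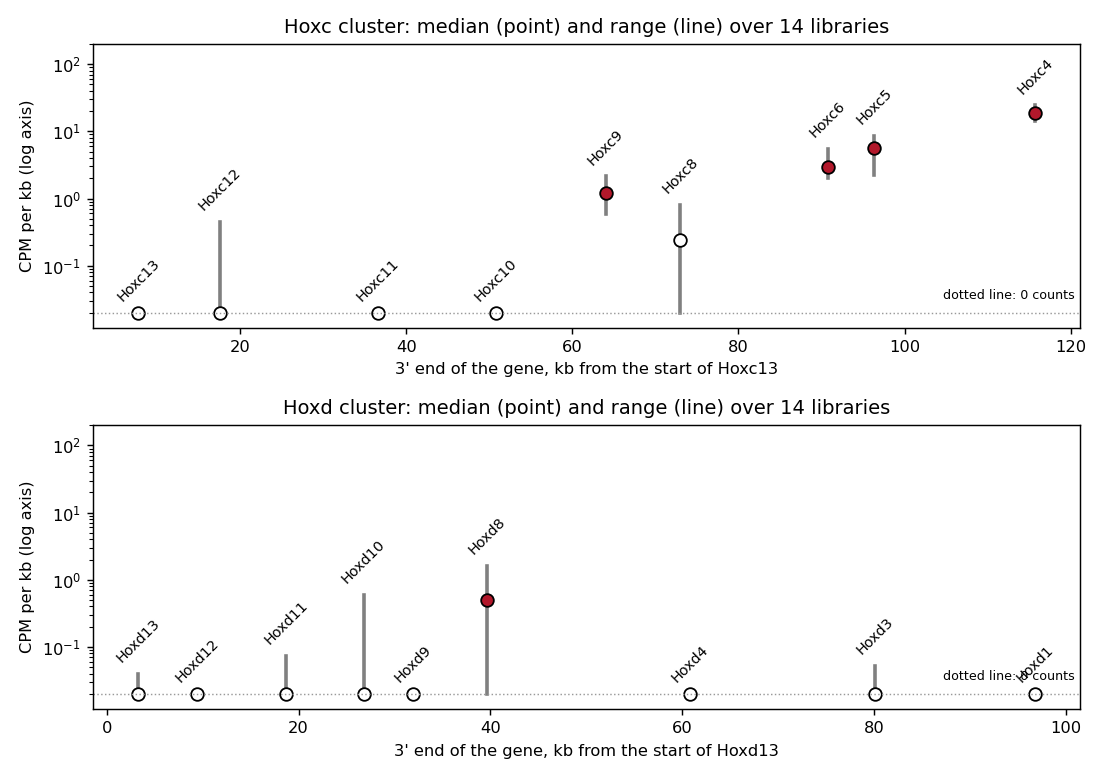
Level of each Hoxc gene (upper panel) and Hoxd gene (lower panel) as CPM per kb of transcript on a log axis, against the distance of its 3′ end from the start of the paralog 13 gene; points are medians and lines ranges over 14 libraries, red points are genes tested, and 0 is drawn on the dotted line. In Hoxc the level is highest at Hoxc4 and low at Hoxc8, and in Hoxd only Hoxd8 has a median above 0.

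All 39 genes had the same coordinates in the table and in GENCODE M21. Hoxc4 (ENSMUSG00000075394) spans chr15:103018934-103036852, Hoxc5 (ENSMUSG00000022485) chr15:102967443-103017429, Hoxc6 (ENSMUSG00000001661) chr15:102998257-103011881 and Hoxc9 (ENSMUSG00000036139) chr15:102976439-102985099, all on the plus strand of GRCm38. Hoxd8 (ENSMUSG00000027102) spans chr2:74704615-74707933 on the plus strand. The annotated span of Hoxc5 covers Hoxc6, Hoxc8 and Hoxc9, and its exons share 166 bases with Hoxc10, which had 0 counts. The other 4 share no exonic base with any gene.

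The 250 bases before the start that RefSeq gives were read from its promoter table (GRCm38.p6), which held 24 promoters of 22 HOX genes. Among the 5 tested genes these were Hoxc4 and Hoxd8, and the Hoxc4 stretch lies inside an exon of a longer GENCODE transcript and is not printed. The Hoxd8 stretch is shown because it belongs to the 1 Hoxd gene with reads, and those of Hoxa9 and Hoxa5 because these leukemia-linked and central Hoxa genes had none. Capitals mark CpG dinucleotides, the bases at which DNA methylation occurs. The stretches are chr2:74704365-74704614 (plus strand), chr6:52227371-52227620 (minus strand) and chr6:52204588-52204837 (minus strand). Those of Hoxd8 and Hoxa5 end at the start of the gene span in the deposited table, while that of Hoxa9 lies 3469 bases inside its span (chr6:52223100-52231089), in no exon of GENCODE M21.
Hoxd8: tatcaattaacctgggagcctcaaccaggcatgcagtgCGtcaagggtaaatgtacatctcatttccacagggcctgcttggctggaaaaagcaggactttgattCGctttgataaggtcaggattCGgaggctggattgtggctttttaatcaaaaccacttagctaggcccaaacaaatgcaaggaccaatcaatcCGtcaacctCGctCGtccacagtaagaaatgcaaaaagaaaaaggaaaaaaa
Hoxa9: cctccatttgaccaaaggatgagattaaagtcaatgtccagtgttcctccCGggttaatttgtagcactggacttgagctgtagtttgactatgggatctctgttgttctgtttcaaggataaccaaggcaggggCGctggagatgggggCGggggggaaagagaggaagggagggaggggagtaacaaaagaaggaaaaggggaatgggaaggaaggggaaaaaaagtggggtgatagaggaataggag
Hoxa5: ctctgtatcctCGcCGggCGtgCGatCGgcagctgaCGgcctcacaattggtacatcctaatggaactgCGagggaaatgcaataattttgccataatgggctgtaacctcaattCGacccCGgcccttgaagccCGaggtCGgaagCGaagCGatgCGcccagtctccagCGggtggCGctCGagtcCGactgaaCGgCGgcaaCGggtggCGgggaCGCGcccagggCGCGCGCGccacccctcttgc

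Hoxd8 carried 6 CpG dinucleotides, Hoxa9 3 and Hoxa5 28, and the Hoxc4 stretch carried 8. The median over all 32851 RefSeq promoters was 6. The 22 stretches of HOX genes with 0 to 6 counts ran from 2 to 35, with a median of 13. Those of Hoxc4 and Hoxd8 lay inside this range and below its median. Hoxc5, Hoxc6 and Hoxc9 have no stretch here, and that of Hoxc4 lies in an exon. Genes with and without reads therefore cannot be compared by CpG number in this window. A few motifs were searched on both strands and share no letters with each other in the stretches shown. TGATTNAT, a site bound by HOX and PBX proteins together, was in 2 of 24 HOX stretches and in 2.82% of all promoters. TATAAA was in 4 of 24 and in 12.4% of all. CCAAT was in 14 of 24, including those of Hoxd8 and Hoxa5, and in 33.8% of all. These matches describe letters only.

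Few reads fell in the genes lying among the HOX genes. Of 46 other annotated genes inside the 4 clusters, 40 had 0 counts and all 46 together had 20. Some of the 40 are microRNA genes, such as Mir196b, Mir10a and Mir615. Libraries of polyA RNA are not made to capture these, so their 0 counts do not show that they were quiet. Within 100 kb outside the clusters, 32 genes held 9006 counts and 4 could be tested, namely Lnpk and Mtx2 beside Hoxd, Skap1 beside Hoxb and Gm28876 beside Hoxc. Mtx2, which encodes a mitochondrial outer membrane import protein, alone had 6321 counts. The counts beside the Hoxd cluster (8268) therefore exceeded those of the HOX genes inside it (94).

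Differences between groups were tested for the 5 genes that passed the filter on low counts (edgeR's quasi-likelihood test over 10791 genes, Benjamini-Hochberg adjusted p under 0.05). The filter asked for 3.42 CPM (10 counts at the median library total) in at least 2 libraries, so a gene can pass through the groups in which it is high. Hoxc4, Hoxc5 and Hoxc6 reached this level in all 14 libraries, Hoxc9 in 4 libraries of 4 groups, and Hoxd8 in 3 libraries, all of day 2. The gene just outside was Hoxc8, with 40 counts in 12 of 14 libraries, and the lowest inside was Hoxd8, with 90. In a test of any difference among the 7 groups, 4 of the 5 were called, beside 49.3% of all genes tested. The share over 5 genes is not read further, since Hoxd8, one of the 4, entered the test through the groups in which it was high.

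Hoxc4 was the most abundant HOX gene of the line, and its human counterpart is known from lymphoid cells and early blood progenitors. It had 61.5 and 53.9 CPM in shOgdh346 cells and 62.5 and 57.7 CPM in shOgdh2081 cells, against 47.0 and 44.3 CPM in control BFP positive cells at day 4. All 4 Ogdh hairpin libraries lay above both control libraries. With both hairpins in 1 contrast, the log2 change was 0.37 ± 0.12 (SE), adjusted p = 0.0308 by edgeR, a rise of 29.1%. It was the 1 HOX gene of 5 called in this comparison, beside 16.1% of all genes. Neither hairpin passed alone, at 0.38 ± 0.14 (adjusted p = 0.0636) for shOgdh346 and 0.36 ± 0.14 (adjusted p = 0.0941) for shOgdh2081. The call was lost without shOgdh346 replicate 1 (0.30, adjusted p = 0.212), shOgdh2081 replicate 2 (0.41, adjusted p = 0.075), control replicate 1 (0.42, adjusted p = 0.169) or control replicate 2 (0.33, adjusted p = 0.183). Against control BFP negative cells at day 4, which had 56.1 and 49.7 CPM, the change was 0.19 (adjusted p = 0.198), and DESeq2 gave 0.37 (adjusted p = 0.183). The change was 0.36 with no filter on low counts (adjusted p = 0.0714) and 0.34 in libraries thinned to equal depth (adjusted p = 0.318). For shOgdh346 alone, Hoxc4 passed with only the compared groups in the fit (0.39, adjusted p = 0.0153), without BFP negative replicate 1 of day 4 (adjusted p = 0.048) and without replicate 1 (adjusted p = 0.0448) or 2 (adjusted p = 0.0455) of BFP negative cells at day 2. Over all alternatives the change stayed positive, between 0.19 and 0.42, with adjusted p from 0.0147 to 0.318.

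In control cells, Hoxc4 had its lowest mean at day 0, with 38.7 and 36.7 CPM. At day 2 it had 37.5 and 46.3 CPM in BFP positive cells and 61.7 and 46.9 CPM in BFP negative cells, and the groups did not overlap. At day 4 it had 47.0 and 44.3 CPM in BFP positive and 56.1 and 49.7 CPM in BFP negative cells. BFP negative cells were thus the higher of each pair, though the difference passed at neither day. BFP positive minus BFP negative was −0.37 ± 0.15 at day 2 (adjusted p = 0.141) and −0.18 ± 0.13 at day 4 (adjusted p = 1). Without BFP negative replicate 2, the day 2 difference passed (−0.58, adjusted p = 0.0338). Relative to day 0, Hoxc4 was called in BFP negative cells on both days, with a log2 rise of 0.48 ± 0.14 for day 2 (adjusted p = 0.0218) and 0.46 ± 0.13 for day 4 (adjusted p = 0.0195). Its change in BFP positive cells was 0.11 ± 0.16 for day 2 (adjusted p = 0.693) and 0.28 ± 0.15 for day 4 (adjusted p = 0.296), neither called. The day 2 rise was lost with DESeq2 (0.50, adjusted p = 0.181), in thinned libraries (0.66, adjusted p = 0.17), without BFP negative replicate 1 (0.31, adjusted p = 0.23), or without day 0 replicate 1 (0.52, adjusted p = 0.0986) or 2 (0.44, adjusted p = 0.158). The day 4 rise was lost without BFP negative replicate 1 (0.39, adjusted p = 0.0703) or without day 0 replicate 1 (0.50, adjusted p = 0.115) or 2 (0.42, adjusted p = 0.205). Over the 7 groups Hoxc4 differed at adjusted p = 0.00027, and at most 0.0236 over the alternatives.

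**Figure D2:**
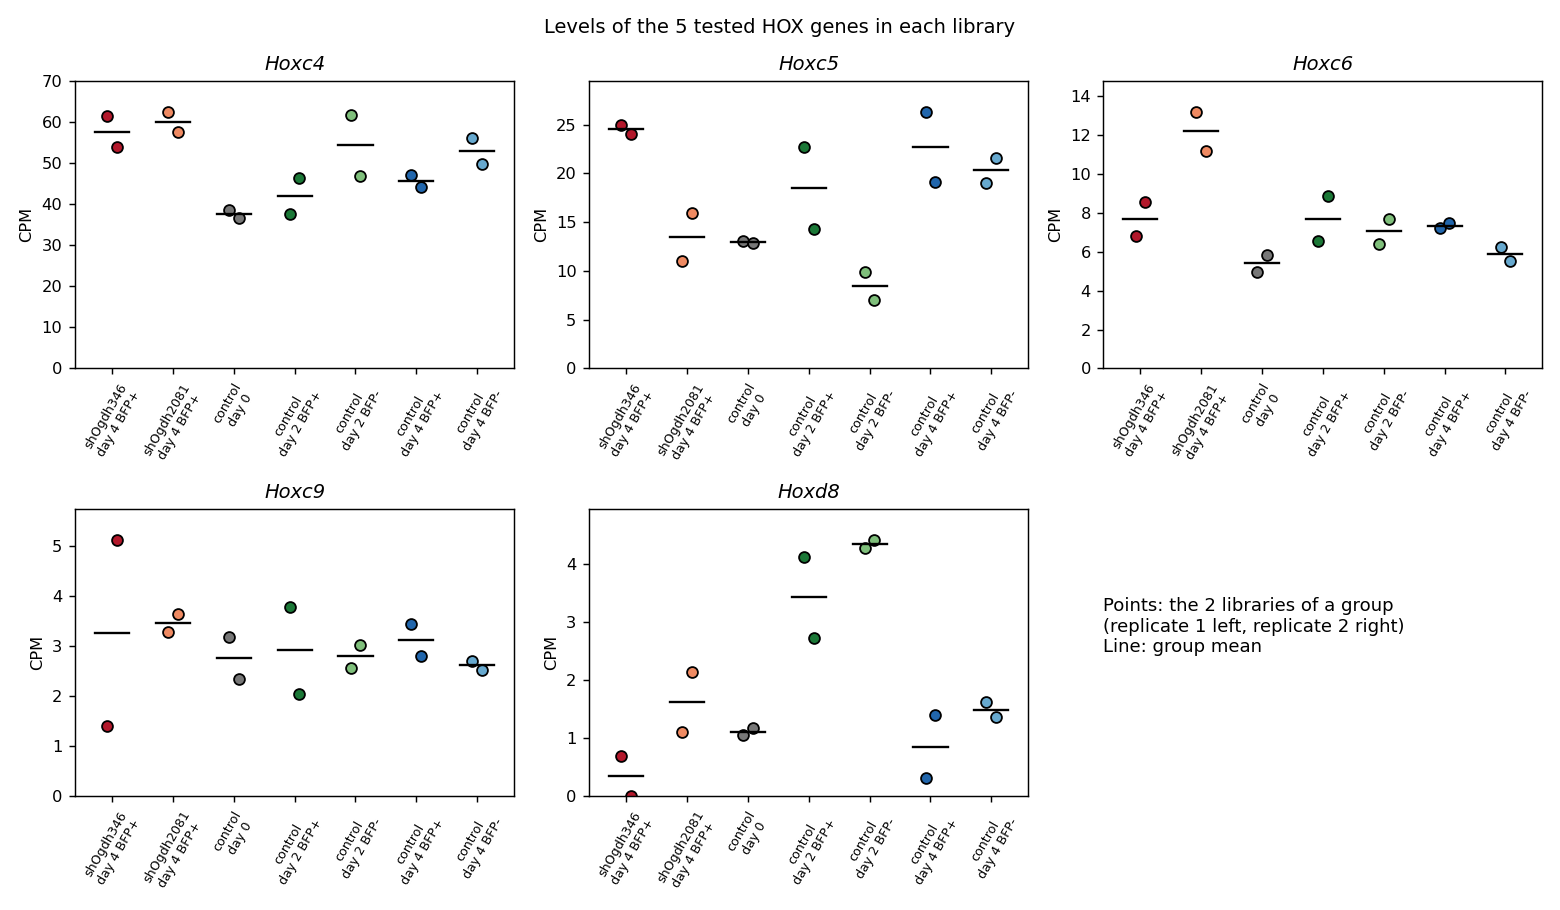
CPM of the 5 tested HOX genes in each library (points) with the group mean (line), for the Ogdh hairpins on the left and the control groups by day on the right; each panel has its own axis from 0. Hoxc4 is high with both Ogdh hairpins, Hoxc5 is lowest in BFP negative cells at day 2, Hoxc6 is highest with shOgdh2081 and Hoxd8 is highest at day 2.

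Hoxc5, the neighbour of Hoxc4, fell with shOgdh2081 and was not called with shOgdh346. It had 25 and 24.0 CPM in shOgdh346 cells and 11 and 15.9 CPM in shOgdh2081 cells, against 26.3 and 19.1 CPM in control BFP positive cells at day 4. The shOgdh346 libraries lay within the control range and the shOgdh2081 libraries below it. With shOgdh2081 it fell by 0.64 on the log2 scale (SE 0.22, adjusted p = 0.0491 by edgeR), the 1 HOX gene of 5 called, beside 11.6% of all genes. With shOgdh346 the change was 0.09 ± 0.19 (adjusted p = 0.828), and edgeR called 0 of 5 HOX genes there, beside 11.2% of all genes; 1 of 5 had an unadjusted p under 0.05, and DESeq2 called 0, with no adjusted p for 4 of them. Over both hairpins the change was −0.28 ± 0.18 (adjusted p = 0.315).

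The difference between the hairpins was itself tested. For shOgdh2081 minus shOgdh346, Hoxc5 gave −0.73 ± 0.21 (adjusted p = 0.208, from an unadjusted p of 0.00117) and did not pass. In that comparison edgeR and DESeq2 each called 0 of 5 HOX genes, beside 0.0834% of all genes in edgeR, and 3 of 5 had an unadjusted p under 0.05. The fall of Hoxc5 with shOgdh2081 sits close to the threshold. It was lost without control replicate 1 (−0.35, adjusted p = 0.596) and without either shOgdh2081 library (−0.55 and adjusted p = 0.151 without replicate 1, −1.09 and adjusted p = 0.147 without replicate 2). The call was also lost, narrowly, without shOgdh346 replicate 1 (adjusted p = 0.0506) and without day 0 replicate 2 (adjusted p = 0.0528). With no filter on low counts it gave −0.67 (adjusted p = 0.0543), in thinned libraries −0.58 (adjusted p = 0.41), and without both shallow hairpin libraries −0.55 (adjusted p = 0.165), while DESeq2 gave no adjusted p.

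The largest called change of Hoxc5 was between BFP positive and BFP negative control cells at day 2. It had 22.7 and 14.3 CPM in BFP positive cells, against 9.85 and 7 CPM in BFP negative cells. Both BFP positive libraries lay above both BFP negative ones. The log2 change was 1.29 ± 0.26 (adjusted p = 0.000469 by edgeR), or 2.45-fold, the 1 HOX gene of 5 called, beside 6.23% of all genes. DESeq2 called it too. It was lost without BFP positive replicate 1 (0.83, adjusted p = 0.324) or BFP negative replicate 2 (1.01, adjusted p = 0.0537), and in thinned libraries (0.94, adjusted p = 0.286).

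At day 4 the same comparison gave 26.3 and 19.1 CPM in BFP positive cells, against 19.0 and 21.6 CPM in BFP negative cells, with overlapping groups. The change was 0.17 ± 0.18 (adjusted p = 1), and edgeR and DESeq2 each called 0 of 5 HOX genes, beside 0.0741% of all genes in edgeR, with 0 of 5 at an unadjusted p under 0.05. The change at day 4 minus that at day 2, a comparison chosen after these values were seen, was −1.13 ± 0.32 for Hoxc5 (adjusted p = 0.0776). It did not pass, with 0 of 5 HOX genes called by edgeR or DESeq2, beside 0.658% of all genes in edgeR, and 1 of 5 at an unadjusted p under 0.05. It passed without BFP negative replicate 1 of day 4 (−1.19, adjusted p = 0.0435), BFP positive replicate 2 of day 2 (−1.34, adjusted p = 0.0208) or BFP negative replicate 1 of day 2 (−1.33, adjusted p = 0.0498).

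Set against day 0, where Hoxc5 had 13.1 and 12.9 CPM, BFP negative cells were below at day 2 and above at day 4. The change was −0.69 ± 0.27 at day 2 (adjusted p = 0.0947), which did not pass, and 0.67 ± 0.21 at day 4 (adjusted p = 0.0279). In BFP positive cells it was 0.60 ± 0.25 at day 2 (adjusted p = 0.082) and 0.84 ± 0.23 at day 4 (adjusted p = 0.0142), a rise of 78.8%. The day 2 value in BFP positive cells passed without replicate 2 of that group (0.81, adjusted p = 0.0289). The day 4 rise in BFP negative cells was lost without replicate 2 of that group (0.53, adjusted p = 0.356) or without day 0 replicate 1 (0.68, adjusted p = 0.187) or 2 (0.65, adjusted p = 0.205), and in libraries thinned to equal depth it was 0.20 (adjusted p = 0.889). The day 4 rise in BFP positive cells was lost without replicate 1 of that group (0.54, adjusted p = 0.419) or without day 0 replicate 1 (0.85, adjusted p = 0.102) or 2 (0.81, adjusted p = 0.111), and in thinned libraries (0.63, adjusted p = 0.452). Over the 7 groups Hoxc5 differed at adjusted p = 1.12e-07, and at most 0.0259 over the alternatives.

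The balance within the cluster moved with Hoxc5. Its share of all Hoxc counts was 25.7% and 25.7% in shOgdh346 libraries and 11.9% and 17.8% in shOgdh2081 libraries, against 30.5% and 25.5% in control BFP positive libraries at day 4. At day 0 it was 21.6% and 22.0%. At day 2 it was 31.9% and 20% in BFP positive libraries, against 12.2% and 10.8% in BFP negative ones, where Hoxc4 took 76.2% and 72.0% of Hoxc counts.

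Relative to day 0, HOX genes were called in 3 of 4 comparisons, each called gene being higher than at day 0. In BFP negative cells at day 2, 2 of 5 were called (Hoxc4 and Hoxd8, both higher, the second with the filter favouring it), beside 10.3% of all genes. In BFP negative cells at day 4, 2 of 5 were called (Hoxc4 and Hoxc5, both higher), beside 8.03% of all genes. In BFP positive cells at day 4, 1 of 5 was called (Hoxc5, higher), beside 7.11% of all genes. In BFP positive cells at day 2, edgeR called 0 of 5, beside 17.9% of all genes, with 2 of 5 at an unadjusted p under 0.05, and DESeq2 called 0, with no adjusted p for 2. These comparisons share the day 0 libraries.

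**Figure D3:**
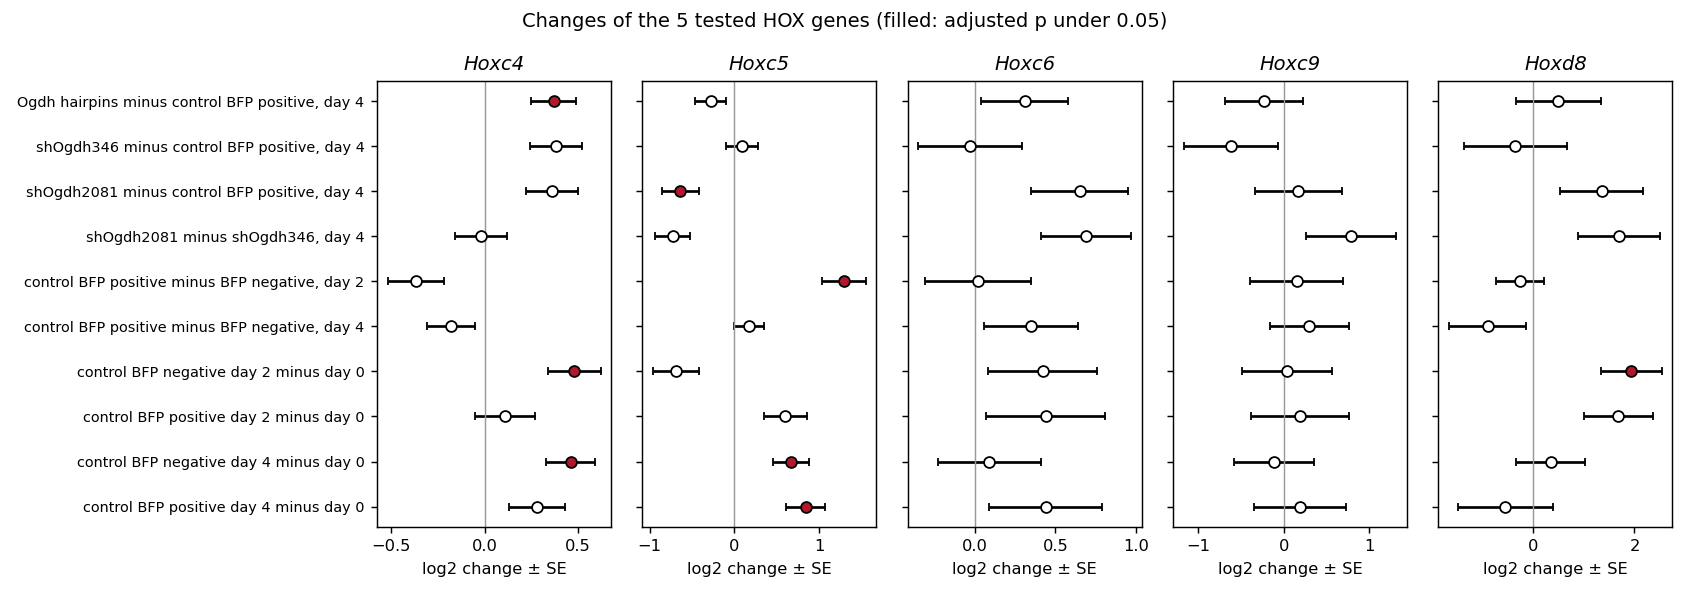
Log2 change with its SE for the 5 tested HOX genes (panels, each with its own axis) in 10 comparisons (rows); filled points passed an adjusted p of 0.05. Hoxc4 passed in 3 rows, Hoxc5 in 4 and Hoxd8 in 1, and the bars of Hoxd8 are the widest because its counts were the lowest.

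Hoxc6 was highest with shOgdh2081. It had 6.81 and 8.56 CPM in shOgdh346 cells and 13.2 and 11.2 CPM in shOgdh2081 cells, against 7.20 and 7.46 CPM in control BFP positive cells at day 4. Both shOgdh2081 libraries lay above all 12 other libraries, the next of which had 8.86 CPM. The change with shOgdh2081 was 0.65 ± 0.30 (adjusted p = 0.145), with both hairpins 0.31 ± 0.27 (adjusted p = 0.471), and between the hairpins (shOgdh2081 minus shOgdh346) 0.69 ± 0.28 (adjusted p = 0.564), so none passed. Against control BFP negative cells at day 4, with 6.24 and 5.53 CPM, the 2 hairpins gave 0.66 (adjusted p = 0.0262). Control cells had 4.97 and 5.86 CPM at day 0, and at day 2 they had 6.54 and 8.86 CPM in BFP positive cells and 6.42 and 7.70 CPM in BFP negative cells. Over the 7 groups Hoxc6 differed at adjusted p = 0.0293. This was lost with DESeq2 (adjusted p = 0.449), with no filter (adjusted p = 0.0527), without both shallow hairpin libraries (adjusted p = 0.0897) and without shOgdh2081 replicate 1 (adjusted p = 0.0826), shOgdh2081 replicate 2 (adjusted p = 0.3), BFP negative replicate 2 of day 4 (adjusted p = 0.0911) or day 0 replicate 1 (adjusted p = 0.0599).

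Hoxc9, the most posterior HOX gene tested, was not called in any comparison. It had 1.40 and 5.13 CPM in shOgdh346 cells and 3.29 and 3.65 CPM in shOgdh2081 cells, against 3.45 and 2.80 CPM in control BFP positive cells at day 4. The other control libraries held 2.04 to 3.79 CPM, and the 2 shOgdh346 libraries held the lowest and the highest value of all 14. The group means were 3.27 CPM in shOgdh346 and 3.47 CPM in shOgdh2081 cells, against 3.12 CPM in control BFP positive cells at day 4, whereas the fitted change with both hairpins was negative, at −0.23 ± 0.46 (adjusted p = 0.787, approximate 95% interval −1.12 to 0.67), and over the 7 groups the adjusted p was 0.842. Leaving out shOgdh346 replicate 1 turned the fitted change to 0.43 (adjusted p = 0.649).

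Hoxd8 was highest at day 2 in control cells, whatever their BFP. It had 1.06 and 1.17 CPM at day 0. At day 2 it had 4.13 and 2.73 CPM in BFP positive and 4.28 and 4.43 CPM in BFP negative cells, and at day 4 it had 0.313 and 1.40 CPM in BFP positive and 1.63 and 1.36 CPM in BFP negative cells. All 4 day 2 libraries lay above the other 10. Since Hoxd8 passed the filter only through day 2 libraries, that filter favoured a difference between day 2 and the other groups, and the values below are given as a description. The counts behind these levels were few, with 3 and 3 at day 0 and 10 and 19 in BFP negative cells at day 2. Relative to day 0, the log2 change in BFP negative cells at day 2 was 1.94 ± 0.60 (adjusted p = 0.0263 by edgeR), or 3.83-fold, and with no filter on low counts it was 1.93 (adjusted p = 0.0293). In BFP positive cells at day 2 the change was 1.68 ± 0.68 (adjusted p = 0.0743). The call was lost without BFP negative replicate 1 (1.95, adjusted p = 0.0548) or 2 (1.90, adjusted p = 0.211), or day 0 replicate 1 (1.87, adjusted p = 0.199) or 2 (2.00, adjusted p = 0.154), and DESeq2 gave no adjusted p. With the Ogdh hairpins it had 0.699 and 0 CPM in shOgdh346 cells and 1.10 and 2.15 CPM in shOgdh2081 cells, against 0.313 and 1.40 CPM in control BFP positive cells at day 4. These control libraries held 1 and 3 counts, so no fold is given. Over the 7 groups the adjusted p of Hoxd8 was 0.000464 by edgeR, 3.34e-05 with no filter and 0.0498 with DESeq2, just under the threshold.

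Of the 4 tested genes beside the clusters, Gm28876 had the largest called changes. It is a long intergenic RNA gene at chr15:103096151-103102111 on the minus strand, past the 3′ end of the Hoxc cluster, and no function is given for it here. It had 13.6 and 11.1 CPM in shOgdh346 cells and 7.68 and 8.15 CPM in shOgdh2081 cells, against 6.27 and 7.46 CPM in control BFP positive cells at day 4. The shOgdh2081 change was 0.26 ± 0.33 (adjusted p = 0.678) and that of both hairpins 0.61 ± 0.27 (adjusted p = 0.126), neither called. The shOgdh346 change was 0.95 ± 0.29 (adjusted p = 0.0205), lost without shOgdh346 replicate 1 (0.72, adjusted p = 0.489) or control replicate 1 (0.82, adjusted p = 0.266) or 2 (1.06, adjusted p = 0.0614), and in thinned libraries (0.39, adjusted p = 0.748). In control cells it had 2.48 and 3.12 CPM at day 0. At day 2 it had 2.75 and 6.13 CPM in BFP positive and 8.14 and 6.06 CPM in BFP negative cells. At day 4 it had 6.27 and 7.46 CPM in BFP positive and 8.95 and 9.02 CPM in BFP negative cells. In BFP negative cells at day 2 it rose over day 0 by 1.28 ± 0.41 (adjusted p = 0.0324). That call was lost with DESeq2 (1.31, adjusted p = 0.226), in thinned libraries (1.09, adjusted p = 0.488) and without either BFP negative or either day 0 library (1.10 to 1.52, adjusted p from 0.0838 to 0.239). In BFP negative cells at day 4 it rose over day 0 by 1.68 ± 0.35 (adjusted p = 0.000815), lost without day 0 replicate 1 (1.51, adjusted p = 0.057) and in thinned libraries (1.94, adjusted p = 0.0657).

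Cofactors of HOX proteins were present although most HOX genes were not. Of 11 homeobox cofactor genes of the TALE class, 8 were tested, and 0 were called in the comparison of both Ogdh hairpins with control (edgeR), with a median log2 change of −0.1, beside 833 higher and 902 lower of 10791 genes and a median of 0. Pbx4 (19.8 CPM per kb over all libraries), Pbx2 (18.8) and Pknox1 (7.27) were the main cofactors of the PBX and PKNOX families among those given here, and Pknox2 had 0 counts. Meis1, the partner of Hoxa9 in leukemia, had 1.23 CPM per kb and a log2 change of −0.12 ± 0.24 (adjusted p = 0.777). That sign turned without control replicate 2, at 0.21 (adjusted p = 0.744). Against control BFP negative cells Meis1 fell by 0.51 (adjusted p = 0.035).

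Genes listed as upstream of HOX genes were mostly expressed. The list held 24 genes of the MLL and DOT1L complexes, the caudal family and others, not all of them activators. Of these, 21 were tested in the comparison of both Ogdh hairpins with control. There 4 were higher, 0 lower and 17 did not pass, beside 16.1% of all genes called, and the median was 0.07. Kmt2a, which encodes MLL, gave 0.32 ± 0.08 (adjusted p = 0.00304), and Kmt2d, a related methyltransferase, 0.35 ± 0.07 (adjusted p = 0.000436). Ash1l, a methyltransferase that works with MLL at HOX genes, gave 0.49 ± 0.09 (adjusted p = 5.72e-05). The fourth, Hdac9, is a histone deacetylase outside the MLL, DOT1L and caudal families, and gave 1.90 ± 0.35 (adjusted p = 6.43e-05). The caudal genes Cdx1, Cdx2 and Cdx4, activators of HOX genes in the embryo, had 0 counts. Without control replicate 1, Kmt2a (0.19, adjusted p = 0.341) and Kmt2d (0.23, adjusted p = 0.197) no longer passed. Against control BFP negative cells they gave 0.18 (adjusted p = 0.0738) and 0.13 (adjusted p = 0.19). Kmt2a also missed the threshold in DESeq2 (0.34, adjusted p = 0.0938).

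Of 26 Polycomb and related genes, 24 were tested, with 4 higher, 3 lower and 17 not passing, beside 16.1% of all genes called, and a median of 0.07. The catalytic subunits of Polycomb complex PRC2 went apart: Ezh1 rose (0.61 ± 0.15, adjusted p = 0.00269) and Ezh2 fell (−0.24 ± 0.08, adjusted p = 0.0214). Phf19, an accessory subunit of PRC2, fell (−0.45 ± 0.11, adjusted p = 0.00317). Phc3 (0.58 ± 0.10, adjusted p = 3.55e-05) and Cbx7 (0.58 ± 0.17, adjusted p = 0.012), both of the PRC1 complex, rose. Kdm6b, which removes the Polycomb mark instead of adding it, also rose (0.43 ± 0.13, adjusted p = 0.0168). Without control replicate 1 the calls of Ezh1 (0.61, adjusted p = 0.0928), Ezh2 (−0.26, adjusted p = 0.144), Phf19 (−0.47, adjusted p = 0.0677) and Kdm6b (0.37, adjusted p = 0.275) were lost, and without control replicate 2 those of Ezh2 (−0.22, adjusted p = 0.157), Kdm6b (0.47, adjusted p = 0.0579) and Cbx7 (0.41, adjusted p = 0.213). Without shOgdh346 replicate 1, Cbx7 (0.42, adjusted p = 0.212) and Kdm6b (0.31, adjusted p = 0.22) did not pass, nor did Ezh2 without shOgdh346 replicate 2 (−0.23, adjusted p = 0.0522). Without shOgdh2081 replicate 2, Ezh2 (−0.21, adjusted p = 0.141) and Cbx7 (0.49, adjusted p = 0.167) did not pass. Against control BFP negative cells Cbx7 gave 0.02 (adjusted p = 0.921) and Kdm6b 0.27 (adjusted p = 0.0612). In thinned libraries Phf19 (−0.28, adjusted p = 0.396), Ezh2 (−0.23, adjusted p = 0.162), Kdm6b (0.36, adjusted p = 0.352) and Cbx7 (0.75, adjusted p = 0.0753) lost their calls. DESeq2 did not call Ezh2 (adjusted p = 0.0898), Cbx7 (adjusted p = 0.141) or Kdm6b (adjusted p = 0.141). Phc3 kept its call in all 22 alternatives.

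Of 15 genes known as targets of HOXA9 and MEIS1 in leukemia, 10 were tested, with 1 higher, 2 lower and 7 not passing, beside 16.1% of all genes called, and a median of −0.2. Myb, a transcription factor of blood progenitors, rose by 0.35 ± 0.06 (adjusted p = 4.69e-05) and stands at 79.1 CPM per kb over all libraries although Hoxa9 had 0 counts. Pim1, a kinase gene, fell (−1 ± 0.19, adjusted p = 6.02e-05), as did Lmo2, a transcription adaptor (−0.28 ± 0.07, adjusted p = 0.00526). Lmo2 lost its call without control replicate 1 (−0.29, adjusted p = 0.0905) or 2 (−0.27, adjusted p = 0.0616), and in thinned libraries (−0.25, adjusted p = 0.113). Flt3 and Sox4, both targets linked to HOXA9 leukemias, had 3 counts each.

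**Figure D4:**
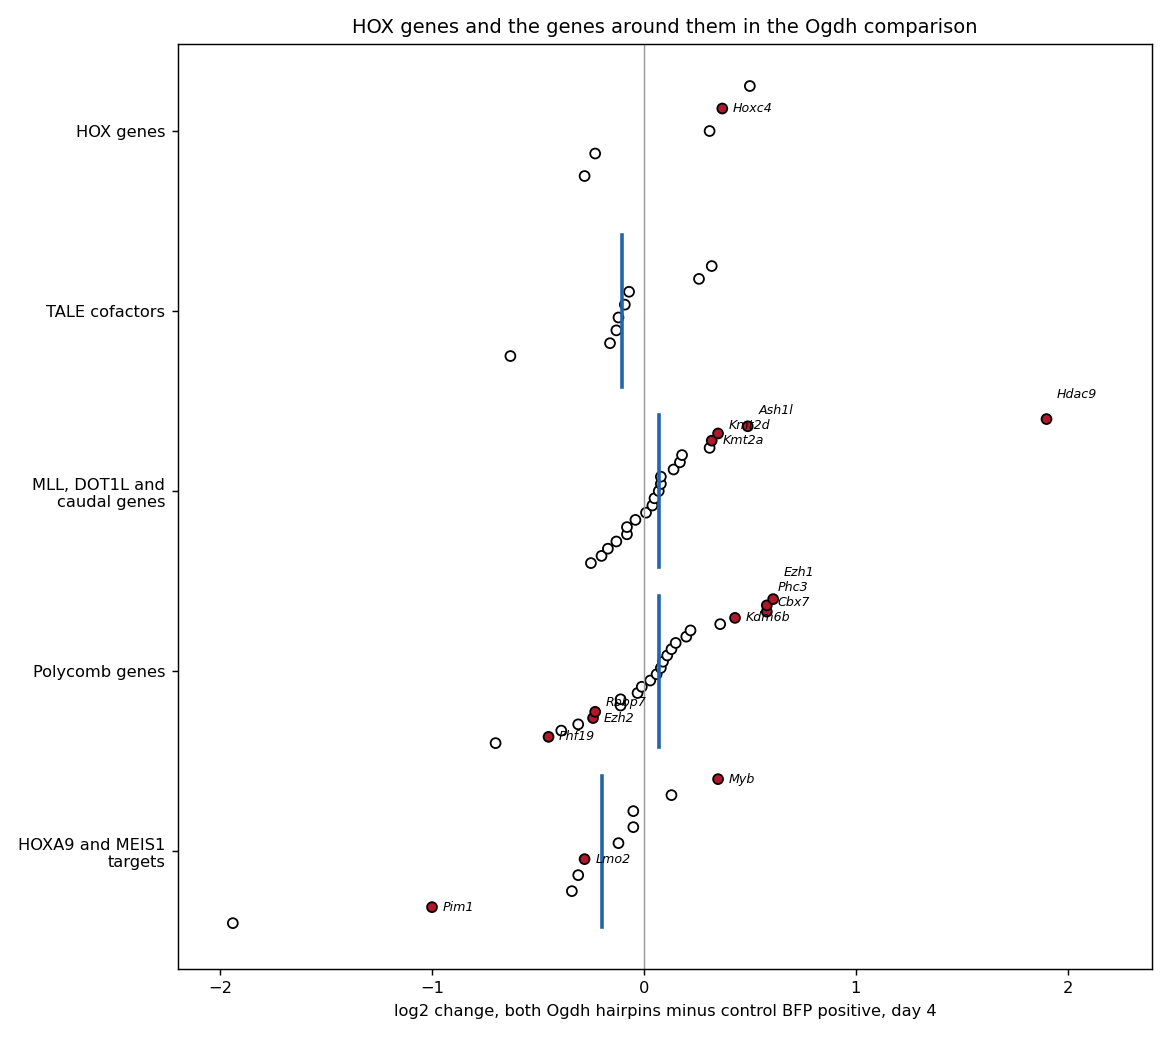
Log2 change of each tested gene in 5 lists for both Ogdh hairpins minus control BFP positive cells at day 4; filled points passed an adjusted p of 0.05 and are named, and blue lines are medians of the 4 lists around the HOX genes. Among HOX genes 1 of 5 passed, and in the other lists 0 of 8 cofactors, 4 of 21 upstream genes, 7 of 24 Polycomb genes and 3 of 10 targets. Of all genes tested, 16.1% passed.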

How the data were processed

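The deposited table gives raw, unnormalized read counts and, for every gene, a transcript length in bases (another unit) whose source is unstated. Per the labels' protocols, polyA RNA was made into TruSeq libraries and read from a single end. The protocols name a human build and HTSeq, whereas the submitters' processing notes list featureCounts 1.6.3, STAR 2.6.1a, Trimmomatic 0.36 and FastQC 0.11.5, with mm10 and GRCm38 as builds. The identifiers are of mouse, and 96.3% of genes shared with GENCODE M21 had its coordinates. The sources used here do not give the strand setting.

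Genes were filtered with filterByExpr (10791 left), scaled with TMM (trimmed mean of M values; factors between 0.968 and 1.01) and tested in 1 model of all 14 libraries (edgeR 4.0.16, R 4.3.3), two-sided, with group as the only term. An exact permutation test of 2 against 2 libraries cannot go below 0.333, so none was run. CPM of tested genes used TMM scaling, and CPM per kb used library totals and the deposited length. SE is the log2 change divided by the square root of F. The limit set by a count of 0 covers counting error only. The test was checked on simulated data, with changes planted only in genes with a mean count of at least 20. It recovered 98% of 2-fold and 72% of 1.5-fold changes. Hoxc9 and Hoxd8, with 135 and 90 counts over 14 libraries, lie below that mean, so the check does not cover them. The Hoxc4 change with both Ogdh hairpins, 1.29-fold, was smaller than these planted changes, so the recovery given does not describe it. Replicates differed by a chi-square per degree of freedom of 1.16 to 2.71, where counting noise alone gives about 1. Each was kept as a sample, although these values do not show that replicates were separate cultures. Alternatives were DESeq2 1.42.0, RLE scaling, no filter, thinning to 913482 counts, a replicate block, fewer samples and leaving out each library. Named genes were all HOX genes, tested genes within 100 kb of a cluster and, of the other lists, at most 6 called genes with the largest change under the Ogdh hairpins. A few genes are not reported here by name. Members and lists were chosen with earlier results of these data known.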

Additional observations from a re-analysis of the deposited data

How the results depend on the processing

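Counts of called HOX genes were small and depended on the processing. For both Ogdh hairpins the count was 1, and 0 with DESeq2, with no filter or with libraries thinned to equal depth. For shOgdh346 it was 0, and 1 with only the groups compared (Hoxc4), beside 1206 and 1814 of all genes. For shOgdh2081 it was 1, and 0 with DESeq2, with no filter, thinned or without the shallow library of each hairpin. All genes called with shOgdh2081 went from 1247 to 460 with DESeq2, 1000 with no filter and 495 when thinned. For BFP positive minus BFP negative cells at day 2 the count of HOX genes was 1, and 0 when thinned, beside 672 and 215 of all genes. Relative to day 0, BFP negative cells had 2 at day 2, and 0 with DESeq2 or thinned. All genes called there went from 1112 to 304 with DESeq2 and 262 thinned. At day 4 BFP negative cells had 2, and 0 with DESeq2 or 1 thinned. All genes called there went from 866 to 262 with DESeq2 and 167 thinned. BFP positive cells at day 4 had 1, and 0 with DESeq2 or thinned, while all genes called went from 767 to 296 and 234. Over the 7 groups the count of HOX genes was 4, and 2 when thinned, beside 5322 and 2904 of all genes. Thinning left 2 HOX genes to test (Hoxc4 and Hoxc5), so over the 7 groups both were called. DESeq2 gave no adjusted p for 3 of the 5 genes with both hairpins, 4 with each hairpin, 1 and 5 in BFP negative cells at days 2 and 4, and 4 in BFP positive cells at day 4, so these are not all lost calls. Leaving out 1 library gave 0 to 1 for both hairpins, each hairpin, BFP positive minus negative at day 2, BFP positive cells minus day 0 at each day and the day 4 minus day 2 difference. It gave 0 to 2 for BFP negative cells minus day 0 at each day, 3 to 4 over the 7 groups, and 0 between hairpins and for BFP at day 4. The number of all genes called with both hairpins was 1735 and ran from 461 to 1899 when 1 library was left out, and was 700 with DESeq2 and 710 when thinned. The replicate numbers did not pair the samples (correlations of deviations −0.144 to 0.214 over 21 pairs of groups). In the library names, the shOgdh346 libraries are numbered in the reverse order of their replicate numbers, unlike those of every other group. A pairing by library number was therefore not tested, by these correlations or by the replicate block. With a replicate block, shOgdh2081 called Hoxc4 (0.41, adjusted p = 0.0454) in place of Hoxc5 (−0.59, adjusted p = 0.0738); the other counts of HOX calls were equal. The sign turned for some uncalled changes when 1 library was left out: Hoxc5 ran from −0.5 to 0.02 for both hairpins, from −0.09 to 0.38 for shOgdh346 and from −0.12 to 0.34 for BFP at day 4, and for both hairpins Hoxc9 ran from −0.5 to 0.43 and Meis1 from −0.55 to 0.21. Against BFP negative cells Hoxc9 was 0.08. The causes were not tested. Depth limits Hoxd8, with 0 to 19 counts in a library, and the genes below the filter.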
